A study of Mus musculus with 22 samples.

Results

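The genes described here are 10 Krüppel-like factors, Klf3, Klf4, Klf6, Klf7, Klf9, Klf10, Klf11, Klf12, Klf13 and Klf15, taken by name from a count table of 52327 genes in sorted pancreatic β-cells. They belong to a family of 17 genes in that table, Klf1 to Klf17. The members were chosen by name, with earlier measured values of these data known. Neither those values nor a threshold is recorded, so the number of listed genes that changed is a description and says nothing of the family's response. Of the 10 listed genes, 9 passed the expression filter (14064 genes in all). Klf4 did not.

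The study set β-cells of diphtheria toxin (DT)-treated mice, whose islets are meant to keep only β-cells, beside β-cells of control mice with intact islets. There were 6 refed DT mice, 5 refed control mice, 6 fasted DT mice and 5 fasted control mice. Each of the 22 libraries came from its own mouse. All mice were males of mixed background aged 3 months, sampled 1 month after ablation. All carried the alleles GluDTR+, SstDTR htz and PpyDTR htz, controls included. These alleles place the toxin receptor under the glucagon, somatostatin and pancreatic polypeptide genes, and the labels do not say whether controls were injected. Fasted mice had no food for 8 h, and refed mice had food for 2 h after an 8 h fast. The series therefore asks what loss of the other endocrine cells, and a meal, do to β-cell transcripts.

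Krüppel-like factors bind GC-rich and CACCC elements through zinc fingers of the same type as those of Sp1. What a member does to its targets depends on the part outside the fingers. Klf3, Klf8 and Klf12 recruit the corepressor CtBP, while Klf9, Klf10, Klf11 and Klf13 bind the Sin3 histone deacetylase complex, and Klf6 and Klf7 act mostly as activators. Klf10 and Klf11 were first described as early genes induced by TGF-β, and rare KLF11 variants have been linked to inherited diabetes in humans. Klf9 and Klf15 are induced by glucocorticoids in several tissues, and Klf15 takes part in the fasting programme of liver and muscle.

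Promoters are shown for the member that changed most between feeding states, Klf11, and for Klf9, Klf13 and Klf15, which varied widely between fasted mice of the same group. Each is the 250 bases before the start of the gene in RefSeq (GRCm38.p6), 5′ to 3′ on the strand of the gene. Klf11 is shown only up to its earlier GENCODE start, which leaves 153 bases. They lie at chr12:24651121-24651273 (Klf11, plus strand), chr19:23140976-23141225 (Klf9, plus strand), chr7:63938916-63939165 (Klf13, minus strand) and chr6:90462326-90462575 (Klf15, plus strand). Capitals mark GGGCGG (the GC box bound by Sp and Klf proteins) and CACCC, on either strand.
Klf11: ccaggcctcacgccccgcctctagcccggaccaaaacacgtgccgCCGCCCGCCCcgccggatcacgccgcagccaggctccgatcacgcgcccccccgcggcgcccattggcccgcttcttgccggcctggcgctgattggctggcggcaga
Klf9: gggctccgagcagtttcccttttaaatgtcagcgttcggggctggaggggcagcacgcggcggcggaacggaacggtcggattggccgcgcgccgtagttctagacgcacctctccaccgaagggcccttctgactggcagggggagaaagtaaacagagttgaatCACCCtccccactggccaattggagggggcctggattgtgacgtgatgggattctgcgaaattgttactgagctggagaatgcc
Klf13: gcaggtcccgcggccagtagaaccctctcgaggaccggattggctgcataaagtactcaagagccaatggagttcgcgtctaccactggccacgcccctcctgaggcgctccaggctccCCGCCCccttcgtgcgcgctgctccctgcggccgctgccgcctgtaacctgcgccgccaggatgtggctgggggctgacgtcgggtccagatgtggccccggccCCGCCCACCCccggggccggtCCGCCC
Klf15: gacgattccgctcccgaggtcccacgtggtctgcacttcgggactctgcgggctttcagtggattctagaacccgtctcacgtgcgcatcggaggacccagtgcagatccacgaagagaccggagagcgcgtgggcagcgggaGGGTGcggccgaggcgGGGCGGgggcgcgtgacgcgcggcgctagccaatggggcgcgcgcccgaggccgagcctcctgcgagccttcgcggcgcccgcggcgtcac
GC content of the 250 bases was 76.8% for Klf11, 59.6% for Klf9, 71.6% for Klf13 and 72% for Klf15. The RefSeq table held a promoter for 9 of the 10 members, the exception being Klf10. GGGCGG, which 32.7% of 32851 promoters of this length held, occurred 4 times in Klf11, 3 times in Klf13, 1 time in Klf15 and 0 times in Klf9. CACCC, in 52% of all promoters, occurred 1 time each in Klf9, Klf13 and Klf15 and 0 times in Klf11. CACGTG, an E-box read by clock and carbohydrate-response factors (6.02% of promoters), occurred 1 time each in Klf4, Klf6 and Klf11 and 2 times in Klf15. GTAAACA, a forkhead motif (3.17%), occurred in Klf9 alone among the 9. The cAMP response element TGACGTCA (1.55%) and the glucocorticoid response element (0.387%) occurred in 0 of the 9. Motifs were sought on both strands of the 250 bases, overlapping matches were each counted, and a match describes letters only.

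Total counts per library lay between 16584117 and 24988880. Levels are given as CPM, read counts scaled to a common library size with TMM factors. Refed DT mouse 13 stood apart, with 69.4% of its counts from Ins1 and Ins2 (40.3% the lowest library). Its scaling factor was 0.567, which raises its CPM of every gene, Ins1 and Ins2 included, relative to the raw share. Its β-cell markers summed to 1280000 CPM, a value that is possible only on this scale. The β-cell markers summed to 430000 to 1280000 CPM in refed DT mice, 421000 to 610000 in refed control mice, 453000 to 580000 in fasted DT mice and 493000 to 581000 in fasted control mice. Sst, the somatostatin gene of δ-cells, had a median of 0.0496 CPM (0 to 0.494) in refed DT against 56 CPM (29.8 to 71.5) in refed control mice. In fasted mice the median was 0.0475 CPM (0 to 4.71) in DT against 30.3 CPM (13.4 to 43.4) in control mice. Gcg, the glucagon gene of α-cells, had a median of 0.461 CPM (0 to 26) in refed DT against 158 CPM (56 to 172) in refed control mice, and of 0.146 CPM (0.0529 to 0.833) in fasted DT against 77.4 CPM (1.28 to 241) in fasted control mice. Refed DT mouse 20 also stood apart from its group, with immune markers at 475 CPM, against 11 to 33.5 CPM in the other refed DT mice. Its acinar markers stood at 47.8 CPM, against 3610 to 27500 CPM. Outside that group, immune markers reached 350 CPM in fasted DT mouse 7 and 178 CPM in fasted control mouse 1. Acinar markers were at 85 CPM in fasted DT mouse 8 and 100 CPM in fasted control mouse 3. Acinar markers summed to a median of 6890 CPM in refed DT mice, 9260 in refed control mice, 1920 in fasted DT mice and 3630 in fasted control mice, with ranges that overlapped throughout and 0 of 8 markers with an unadjusted p under 0.05 in any comparison (edgeR).

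Per kilobase of exon, Klf10, Klf11 and Klf9 were by mean the most abundant members in fasted β-cells, and Klf9 and Klf10 in refed ones. In fasted DT mice Klf10 stood at 9.72 ± 1.47 CPM per kb (SD, n = 6), Klf11 at 7.86 ± 2.25 and Klf9 at 7.70 ± 5.28. In fasted control mice the same genes stood at 9.87 ± 1.52 (SD, n = 5), 9.79 ± 0.834 and 9.27 ± 6.04. Their ranges overlapped, so the order among the 3 is not resolved. In refed DT mice Klf9 led at 6.53 ± 2.28 CPM per kb, followed by Klf10 at 4.53 ± 1.19, while Klf11 was 10th of the 14 tested family genes at 0.976 ± 0.731. In refed control mice Klf9 led at 7.44 ± 2.41, Klf10 followed at 5.07 ± 0.992, and Klf11 was 9th at 1.35 ± 0.320. These refed ranks are of means and are not resolved either. Klf9 and Klf10 ranged over 3.07 to 8.77 and 2.32 to 5.79 in refed DT mice. In refed control mice they ranged over 3.82 to 9.64 and 3.97 to 6.27. Klf11 overlapped its neighbours in rank in both refed groups. Klf15 came next among the members, at 3.25 ± 1.69 CPM per kb in refed DT, 3.40 ± 1.07 in refed control, 3.60 ± 3.21 in fasted DT and 6.07 ± 4.62 in fasted control mice. Klf12 was the lowest of the 9 tested members in each group, at 0.706 to 0.809 CPM per kb.

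**Figure D1:**
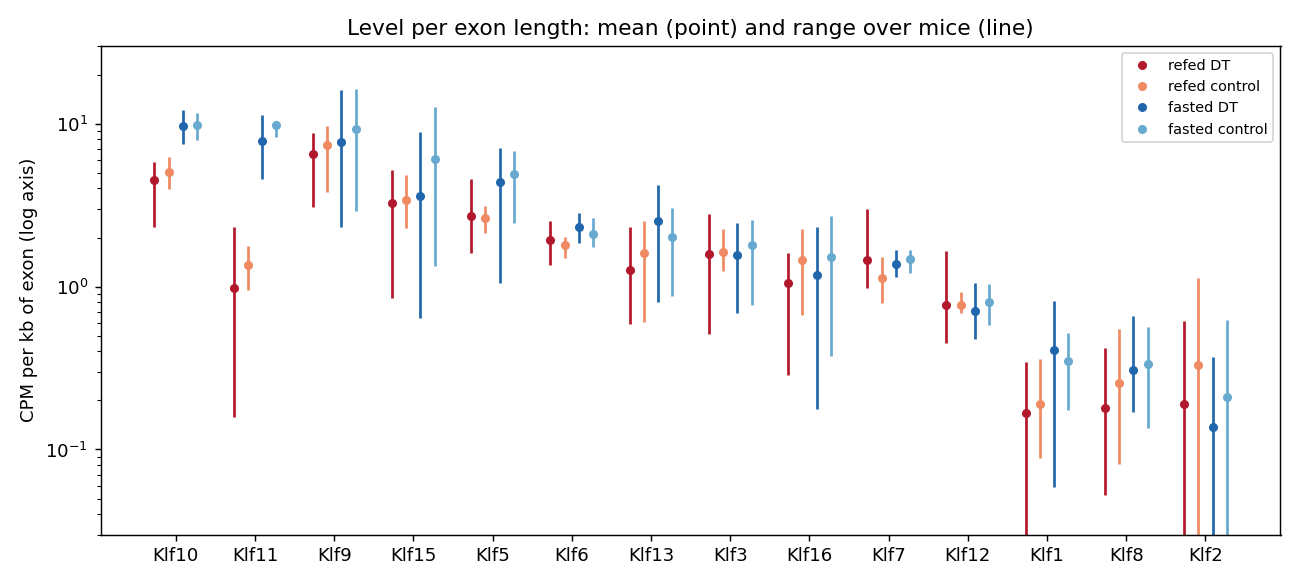
Mean (point) and range over mice (line) of CPM per kb of exon, on a log axis, for the 14 tested Klf genes in refed DT (n = 6), refed control (n = 5), fasted DT (n = 6) and fasted control mice (n = 5). A line that reaches the lower edge has a mouse at 0, except that of Klf2 in refed control mice, whose lowest mouse stood at 0.0255. Klf11 is the gene whose refed points lie farthest below its fasted points.

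Klf11 fell after refeeding in both DT and control β-cells, and so did Klf10, by a smaller fold. Klf11 lies on chromosome 12 (24651274 to 24662789, GRCm38). Its levels in refed DT mice were 2.65 (mouse 13), 0.691 (mouse 14), 10.1 (mouse 15), 4.15 (mouse 16), 3.42 (mouse 17) and 4.37 CPM (mouse 20). Fasted DT mice 6 to 11 had 34.3, 30.3, 19.7, 49.0, 31.8 and 39.5 CPM. The lowest fasted DT mouse was above the highest refed DT mouse. Refed control mice 12, 18, 19, 21 and 22 had 6.30, 4.13, 6.34, 7.68 and 4.86 CPM, and fasted control mice 1 to 5 had 43.6, 45.2, 42.8, 44.6 and 36.2 CPM. These ranges did not overlap either. Klf11 was 8.00-fold lower in refed than in fasted DT mice, a log2 fold change of −3.00 (SE 0.37, 95% interval −3.77 to −2.23, edgeR quasi-likelihood test adjusted p = 9.64e-06). In control mice it was 7.23-fold lower (log2 fold change −2.85, SE 0.40, 95% interval −3.69 to −2.02, edgeR adjusted p = 4.03e-05).

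Klf10 lies on chromosome 15 (38291463 to 38300706, GRCm38). It had 9.69, 21.5, 18.2, 24.2, 19.7 and 20.4 CPM in refed DT mice 13 to 17 and 20, against 38.2, 40.6, 50.6, 31.5, 41.9 and 41.1 CPM in fasted DT mice 6 to 11. All refed DT mice were below all fasted DT mice. Refed control mice 12, 18, 19, 21 and 22 had 26.2, 24.9, 19.9, 18.5 and 16.6 CPM, against 42.5, 36.6, 33.2, 45.2 and 48.9 CPM in fasted control mice 1 to 5, again with no overlap. Klf10 was 2.14-fold lower in DT mice (log2 fold change −1.10, SE 0.17, 95% interval −1.45 to −0.74, edgeR adjusted p = 0.000103) and 1.95-fold lower in control mice (−0.96, SE 0.19, 95% interval −1.35 to −0.57, edgeR adjusted p = 0.000816). The DT and control feeding comparisons share no mice. Without refed DT mice 13 and 20 the log2 fold changes in DT mice were −0.88 for Klf10 (edgeR adjusted p = 0.000289) and −2.82 for Klf11 (edgeR adjusted p = 0.000156).

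**Figure D2:**
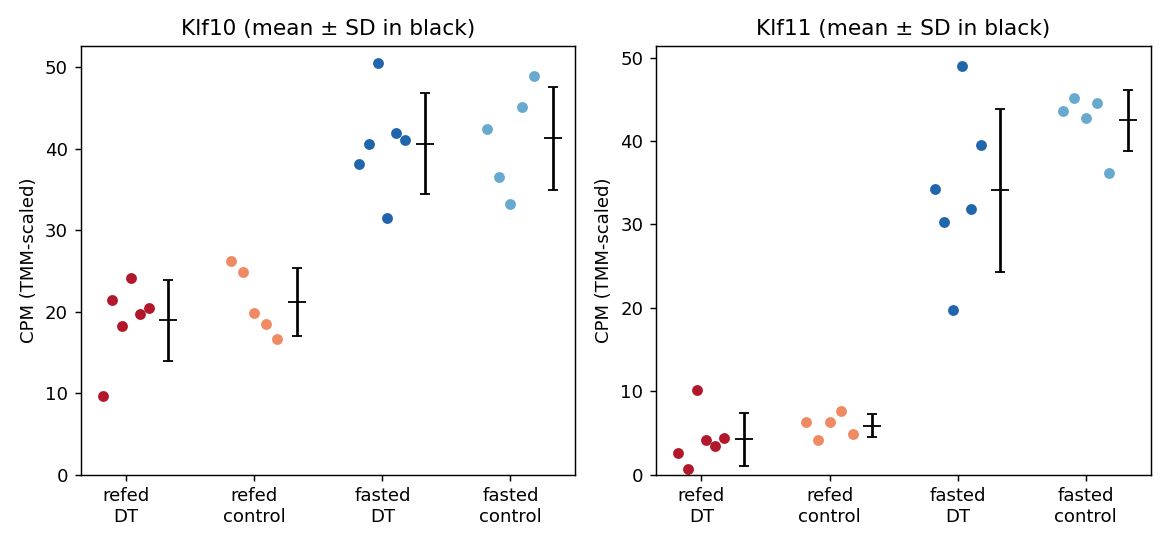
CPM of Klf10 and Klf11 in each mouse (points) with mean ± SD (black) in refed DT, refed control, fasted DT and fasted control mice. The highest refed values, 26.2 CPM for Klf10 and 10.1 CPM for Klf11, lie below the lowest fasted values, 31.5 and 19.7 CPM.

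Klf10 and Klf11 were 2 of 9 tested members called lower after refeeding, in DT and in control mice alike, and 0 were called higher. Over all genes, 24.4% were called in DT mice (13.5% lower) and 23.3% in control mice (12.3% lower), so a count of 2 in 9 is near the background and nothing is read from it. The median log2 fold change of the 9 members was −0.24 in DT mice and −0.34 in control mice, beside −0.06 and −0.04 over all genes. Ranges of refed and fasted mice did not overlap for 10.1% of genes in DT mice and 21.5% in control mice. The refed groups also differed from the fasted groups in some heat-shock transcripts, a list that responds to cell isolation as well as to physiology. Of 7 tested, 4 were higher in refed DT than fasted DT mice and 3 in refed control than fasted control mice. For Hsp90aa1 the log2 fold changes were 1.57 and 2.02 (edgeR adjusted p = 2.23e-06 and 7.31e-07). Hspa1a averaged 20.1 CPM in refed DT and 22 in fasted DT mice, and 20 in refed control and 28.2 in fasted control mice. Hspa1b averaged 34.2 CPM in refed DT and 30.6 in fasted DT mice, and 37.5 in refed control and 48.4 in fasted control mice. The list summed to 1290 to 2660 CPM in refed DT mice, 1380 to 2970 in refed control mice, 365 to 575 in fasted DT mice and 331 to 649 in fasted control mice, and its part in the Klf10 and Klf11 result was not tested. In bulk RNA of sorted cells, fewer cells of a type and less RNA per cell cannot be told apart.

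Ablation was not accompanied by a called change in any member. In refed mice Klf11 averaged 4.23 ± 3.17 CPM in DT mice (SD, n = 6) and 5.86 ± 1.39 CPM in control mice (n = 5), a log2 difference of −0.46 (95% interval −1.23 to 0.31, edgeR adjusted p = 0.714). In fasted mice it averaged 34.1 ± 9.76 CPM in DT mice and 42.5 ± 3.62 CPM in control mice, a log2 difference of −0.32 (95% interval −1.05 to 0.42, edgeR adjusted p = 0.890). Klf10 differed by −0.16 between refed DT and refed control mice (95% interval −0.53 to 0.21) and by −0.02 between fasted DT and fasted control mice (−0.39 to 0.35). The feeding response of the DT mice minus that of the control mice was −0.15 for Klf11 (95% interval −1.21 to 0.92) and −0.14 for Klf10 (−0.66 to 0.39), neither called by edgeR. Differences up to the bounds of these intervals are compatible with the spread between mice. Gcg itself, at a median of 0.461 CPM in refed DT and 158 CPM in refed control mice, was not called by edgeR in either feeding state. It was called lower for the average over feeding, and Sst was called lower in both feeding states. An uncalled gene may therefore still differ.

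With edgeR, 0 of 9 members were called between DT and control mice in either feeding state, averaged over both, or in the difference of the feeding responses. In these 4 comparisons 0 members had an unadjusted p under 0.05, and DESeq2 and limma voom called 0 as well. Over all genes the share at an unadjusted p under 0.05 was 10% in refed mice, 8.33% in fasted mice, 11.9% for the average and 7.14% for the difference of responses, so a count of 0 in 9 is near the background. Over all genes, 0.0356% were called in refed mice (0.0213% higher and 0.0142% lower), 0.0284% in fasted mice (0.0213% higher and 0.00711% lower), 0.206% for the average (0.107% higher and 0.0995% lower) and 0.00711% for the difference of responses. The ranges of DT and control mice overlapped for all 9 members in refed and in fasted mice, while they did not overlap for 0.988% of all genes in refed and 1.88% in fasted mice. The median log2 difference of the 9 members was −0.06 in refed and −0.20 in fasted mice, beside −0.00367 and 0.0123 over all genes.

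**Figure D3:**
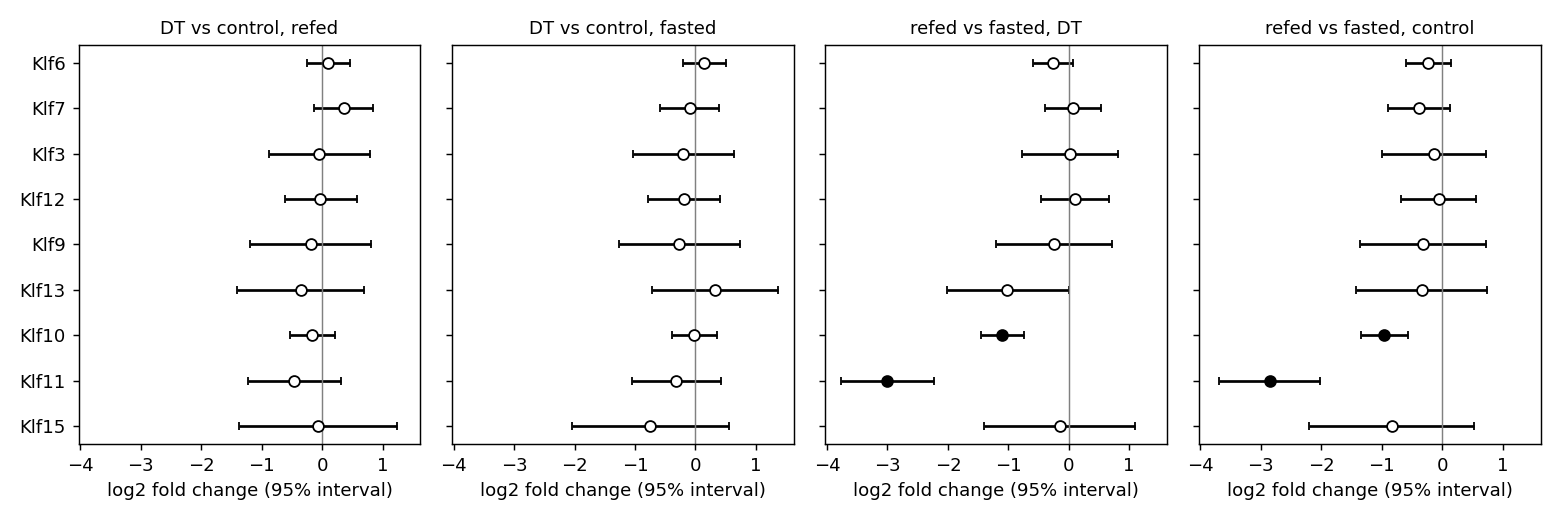
Log2 fold change with 95% interval of the 9 tested members, DT over control (left panels) and refed over fasted (right panels); filled points have an edgeR adjusted p under 0.05. The filled points are Klf10 and Klf11 in both refed-over-fasted panels, and the intervals of Klf9, Klf13, Klf15 and Klf3 are wider than those of Klf6 and Klf10.

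Klf9 and Klf13, the other Sin3-binding members, differed more between mice of the same fasted group than between groups. Klf9 (chromosome 19, 23141226 to 23168134) had 22.3, 18.6, 11.2, 56.9, 36.2 and 77.2 CPM in fasted DT mice 6 to 11 and 64.5, 50.1, 78.9, 15.6 and 14 CPM in fasted control mice 1 to 5. DT mice 6 to 8 and control mice 4 and 5 were low, and the groups overlapped over most of their range. In refed DT mice 13 to 17 and 20 it had 42.2, 30.3, 36.4, 14.8, 42.0 and 22.9 CPM, and in refed control mice 12, 18, 19, 21 and 22 it had 32.2, 46.2, 46.4, 18.4 and 35.9 CPM. The log2 fold change of refed over fasted was −0.24 in DT mice (95% interval −1.20 to 0.72, edgeR adjusted p = 0.750) and −0.32 in control mice (−1.36 to 0.73, adjusted p = 0.703).

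Klf13 (chromosome 7, 63886351 to 63938915) had 16.7, 7.70, 5.82, 4.92, 17.4 and 4.42 CPM in refed DT mice 13 to 17 and 20. It had 9.39, 7.74, 6.04, 28.6, 31.5 and 30.8 CPM in fasted DT mice 6 to 11, where mice 6 to 8 lay within the refed range and mice 9 to 11 above it. The log2 fold change of refed over fasted DT mice was −1.01 (SE 0.49, 95% interval −2.02 to 0.00). Its unadjusted p of 0.049 became 0.137 after adjustment in edgeR, so it was not called. Refed control mice 12, 18, 19, 21 and 22 had 9.55, 15.6, 18.9, 4.57 and 11.5 CPM, and fasted control mice 1 to 5 had 21.8, 22.9, 15.4, 6.58 and 9.58 CPM, which overlapped (log2 fold change −0.34, 95% interval −1.43 to 0.75). Klf13 overlaps 2 annotated genes on the opposite strand, E030018B13Rik and Gm27252, and because the strand setting of the counting is not given in the sources used here its counts are uncertain.

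Klf15, the member best known from fasting liver and muscle, was not called in any comparison and ranged from 1.79 to 35.5 CPM over the 22 mice. It lies on chromosome 6 (90462576 to 90475238). Fasted DT mice 6 to 11 had 4.53, 1.79, 2.22, 14.5, 12.7 and 24.7 CPM, and fasted control mice 1 to 5 had 22.6, 16.7, 35.5, 6.20 and 3.75 CPM. Again DT mice 6 to 8 and control mice 4 and 5 were the low ones. Refed DT mice 13 to 17 and 20 had 4.39, 9.68, 14.6, 2.38, 11.5 and 11.8 CPM, and refed control mice 12, 18, 19, 21 and 22 had 7.69, 13.6, 11.6, 6.36 and 8.22 CPM. The log2 fold change of refed over fasted was −0.15 in DT mice (95% interval −1.40 to 1.09) and −0.83 in control mice (−2.20 to 0.53), and DT over control was −0.06 in refed mice (−1.37 to 1.24) and −0.75 in fasted mice (−2.04 to 0.55). The intervals reached −2.20 for refed over fasted control mice and −2.04 for DT over control in fasted mice. The spread between mice thus limits what can be said of Klf15.

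Of the CtBP-binding repressors, Klf3 ordered the fasted mice as Klf9 did and Klf12 did not. Klf3 (chromosome 5, 64803388 to 64832901) had 10.2, 10, 7.73, 23.9, 27.4 and 26.2 CPM in fasted DT mice 6 to 11 and 28.9, 24.0, 28.5, 11.3 and 8.62 CPM in fasted control mice 1 to 5. In refed mice it had 31.2, 16.3, 17.8, 5.77, 18 and 18.4 CPM in DT mice 13 to 17 and 20 and 15.6, 15.2, 21.9, 14 and 25.5 CPM in control mice 12, 18, 19, 21 and 22. All 4 groups overlapped, and its log2 fold changes lay between −0.20 and 0.02 in the 4 comparisons of single groups. Klf12 (chromosome 14, 99870632 to 100284679) stood at a median of 4.09 CPM in refed DT (3.14 to 11.5), 5.14 in refed control (4.82 to 6.48), 4.87 in fasted DT (3.33 to 7.32) and 5.24 in fasted control mice (4.05 to 7.29), with log2 fold changes from −0.20 to 0.11. Klf12 overlaps 2 annotated genes on the opposite strand, 4930517O19Rik and Gm16260. Klf3 overlaps Gm20033 on the opposite strand and C230096K16Rik on its own strand, which no strand setting would separate. The counts of both are uncertain for these reasons.

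**Figure D4:**
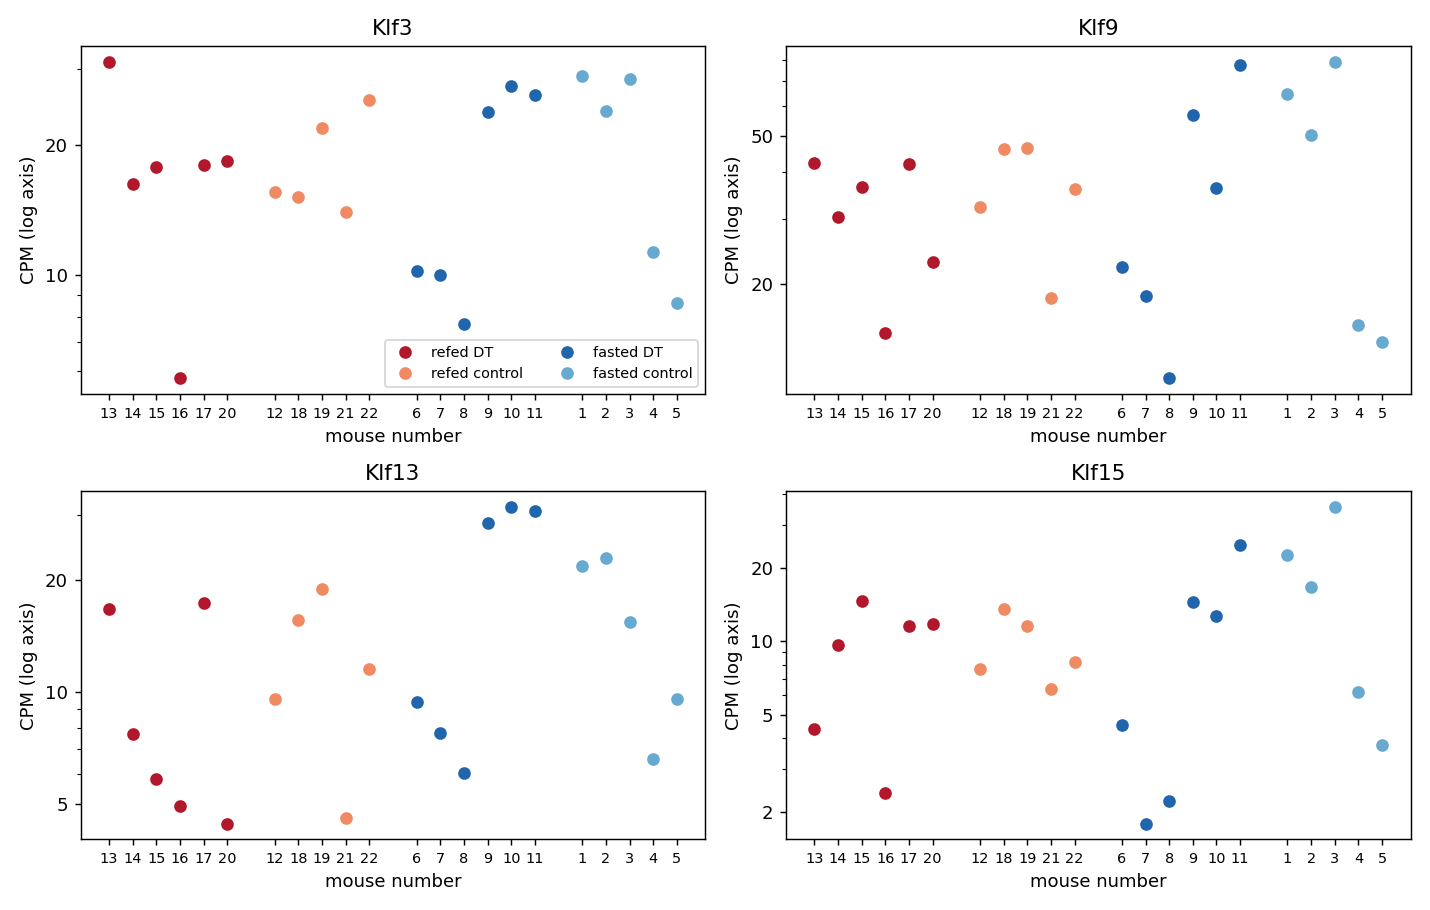
CPM on a log axis of Klf3, Klf9, Klf13 and Klf15 in each mouse, by mouse number and group. In all 4 panels fasted DT mice 6 to 8 and fasted control mice 4 and 5 lie below the other 6 fasted mice; for Klf13 the gap is between 9.58 and 15.4 CPM.

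These 4 genes ordered the fasted mice in the same way: each was lower in fasted DT mice 6, 7 and 8 and in fasted control mice 4 and 5 than in any of the other 6 fasted mice. The order was noticed after the values were seen, and no test is given. It held for 4 of 9 tested members, for 7 of 14 tested family genes (with Klf2, Klf5 and Klf16) and for 7.94% of all tested genes, while the opposite order held for 0.327% of genes and 0 family genes. The first principal component of the 11 fasted libraries, computed on 14050 genes without the family, held 30.4% of the variance and gave scores of −38.3, −55.6 and −50.8 to mice 6 to 8 and −27.4 and −40.0 to mice 4 and 5, against 38.4 to 46.4 in DT mice 9 to 11 and 23.3 to 31.5 in control mice 1 to 3. Klf10 and Klf11 did not follow this order, with fasted DT mice 6 to 8 at 38.2 to 50.6 CPM and 19.7 to 34.3 CPM, overlapping the values of mice 9 to 11 (31.5 to 41.9 and 31.8 to 49.0 CPM).

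A library-wide measure moved with the order. The mean log2 level of the 1222 genes with the most GC-rich transcripts minus that of the 1222 with the most GC-poor ones, centred over libraries, was −0.103, −0.289 and −0.209 in fasted DT mice 6 to 8 and 0.215, 0.235 and 0.436 in DT mice 9 to 11. It was −0.129 and −0.168 in fasted control mice 4 and 5, and 0.172, 0.125 and 0.155 in control mice 1 to 3. Fkbp5, a glucocorticoid-induced gene named here after its values were seen, had 14.7 to 19.8 CPM in fasted DT mice 6 to 8 and 94.7 to 195 CPM in DT mice 9 to 11, and 20.3 to 23.6 CPM in control mice 4 and 5 and 92.6 to 132 CPM in control mice 1 to 3. Tsc22d3, which glucocorticoids also induce, had 15.8 to 22.4 CPM in fasted DT and 20.1 to 23.2 CPM in fasted control mice. In the same order stood 2 of 8 β-cell markers (Mafa and Nkx6-1) and 3 of 13 cofactors (Ctbp1, Ep300 and Fbxw7). So did 4 of 19 clock genes (Dbp, Hlf, Nfil3 and Npas2) and 2 of 11 genes of the glucocorticoid list (Fkbp5 and Cebpd). That list holds the receptor gene Nr3c1 beside induced genes. The order also held for 2 of 11 TGF-β pathway genes (Smad7 and Smurf1) and 2 of 16 immediate-early genes (Ier5 and Jund). It held for 0 of the Sp and carbohydrate-response genes. The part of library composition in the Klf values was not tested.

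**Figure D5:**
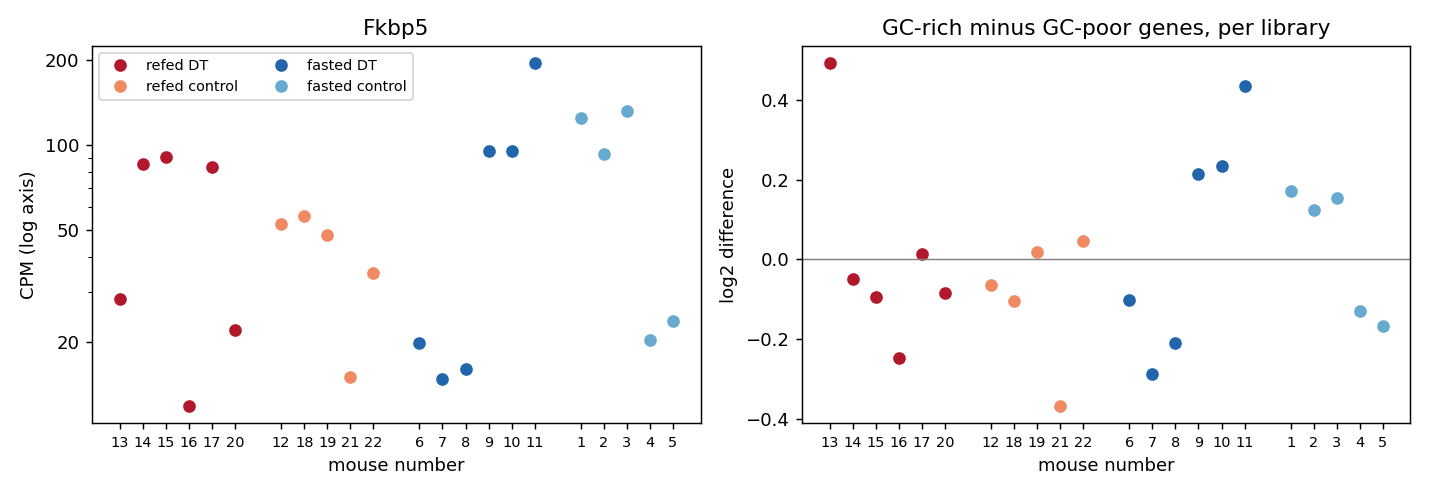
Left, CPM of Fkbp5 on a log axis; right, mean log2 level of GC-rich minus GC-poor genes, centred over libraries; 1 point per mouse, by mouse number and group. Fasted DT mice 6 to 8 and fasted control mice 4 and 5 lie low in both panels, at 14.7 to 23.6 CPM and −0.289 to −0.103.

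Among refed mice DT mouse 16 and control mouse 21 were low in the same genes. Mouse 16 had the lowest Klf3, Klf9 and Klf15 of the refed DT mice, and mouse 21 had the lowest Klf3, Klf9, Klf13 and Klf15 of the refed controls. The GC measure was −0.247 in mouse 16 and −0.369 in mouse 21, the lowest of the refed libraries, and Fkbp5 was lowest in its group in each (11.8 and 15 CPM).

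The activators Klf6 and Klf7 varied little, apart from Klf7 in refed DT mouse 13. Klf6, an early-response gene of tissue injury (chromosome 13, 5861482 to 5870394), stayed within 5.93 to 12.3 CPM in all 22 mice. Its log2 fold change of refed over fasted was −0.27 in DT mice (95% interval −0.60 to 0.07) and −0.23 in control mice (−0.60 to 0.14), and DT over control was 0.11 in refed mice (−0.25 to 0.46) and 0.14 in fasted mice (−0.21 to 0.50). Klf7 (chromosome 1, 64029447 to 64122282) had a median of 9.64 CPM in refed DT mice (7.97 to 24.5), 8.94 in refed control mice (6.41 to 12.4), 10.7 in fasted DT mice (9.38 to 13.6) and 11.6 in fasted control mice (9.88 to 13.6). Its log2 difference of 0.36 between refed DT and refed control mice (95% interval −0.14 to 0.85, edgeR adjusted p = 0.640) became −0.02 without mice 13 and 20. Klf7 overlaps annotated genes on the opposite strand, and its counts are uncertain for that reason.

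Klf4, a pluripotency factor and a gene of endothelial and epithelial cells (chromosome 4, 55527143 to 55532466), was close to the limit of detection, at 0 to 14 counts per library. It reached at most 0.644 CPM in refed DT, 0.636 in refed control, 0.417 in fasted DT and 0.349 in fasted control mice. It was at 0 in 5 libraries, where 3 counts would have been 0.133 to 0.194 CPM. Of 8 endothelial markers, Cdh5, Kdr, Emcn, Tek and Flt1 were at 0 in at least 11 of the 22 libraries. Esam was detected in all 22 libraries, at 2.36 to 6.10 CPM. Pecam1 reached at most 2.56 CPM and Plvap at most 3.8 CPM, each at 0 in some libraries. The 8 markers summed to 4.28 to 10.8 CPM in refed DT, 2.95 to 9.19 in refed control, 3.65 to 6.99 in fasted DT and 3.60 to 7.23 in fasted control mice.

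Of the 7 family genes outside the list, 5 were tested and 0 were called by edgeR, DESeq2 or limma voom in any comparison. Across the comparisons 1 value had an unadjusted p under 0.05, that of Klf5 in control mice. Over all genes edgeR called 24.4% after refeeding in DT mice and 23.3% in control mice, and 0.206% or fewer in the ablation comparisons. At an unadjusted p under 0.05 the refeeding shares were 36% and 34.6%. With 5 genes, nothing is read from these counts. Klf5, an activator of epithelial growth, came nearest after refeeding, at 13.7 ± 1.90 CPM in refed control mice (SD, n = 5) and 25.4 ± 9.24 in fasted control mice (n = 5), with a log2 fold change of −0.89 (unadjusted p = 0.0441, edgeR adjusted p = 0.132). In DT mice it was −0.69 (edgeR adjusted p = 0.195). Klf14 and Klf17 had 0 counts in all 22 libraries, which allows up to 0.274 CPM.

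The partners and inputs of the family were examined as lists, and edgeR called 0 of their members between DT and control mice in either feeding state. The glucocorticoid list had the most at an unadjusted p under 0.05, with 4 of 11 in refed mice and 0 in fasted mice. Over all genes the shares were 10% and 8.33%. Nr3c1, the receptor gene in that list, was lower in refed DT than refed control mice (means of 45 and 55.7 CPM). Errfi1 (58.2 and 37 CPM), Mt1 (1200 and 549) and Mt2 (42.3 and 16.5) were higher. In refed DT mouse 13 that list summed to 4460 CPM, against 665 to 1160 CPM in the other refed DT mice. Averaged over feeding, 1 of 16 tested immediate-early genes, Fosb, was higher in DT mice (log2 difference 1.00, SE 0.20, edgeR adjusted p = 0.0353). Over all genes edgeR called 0.206% in that comparison, 0.107% of them higher in DT mice. After refeeding, 1 of 4 tested Sp genes fell in DT mice (Sp2) and 2 of 4 in control mice (Sp4 and Sp2). Sp2 had 10.6 ± 5 CPM in refed DT and 16.3 ± 3.17 in fasted DT mice, and 9.37 ± 1.57 CPM in refed control and 17.5 ± 2.42 in fasted control mice. Of 13 tested cofactors, Hdac3 and Kat2b fell in DT mice, and Ctbp2 and Kat2b in control mice. Beside these Sp and cofactor counts, edgeR called 13.5% of all genes lower in DT mice and 12.3% in control mice. Kat2b, a histone acetyltransferase, fell by 0.65 on the log2 scale in DT mice (edgeR adjusted p = 0.0278) and by 0.97 in control mice (edgeR adjusted p = 0.00409). The median log2 fold change of the cofactors was −0.05 in DT and 0.11 in control mice.

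Of 11 tested TGF-β pathway genes edgeR called 0 after refeeding in DT mice and 0 in control mice, with 2 at an unadjusted p under 0.05 in each, beside 36% of all genes in DT and 34.6% in control mice. The smallest p belonged to the receptor gene Tgfbr1 in DT mice (log2 fold change −0.57, edgeR adjusted p = 0.0798) and to the Smad corepressor gene Ski in control mice (−0.76, edgeR adjusted p = 0.0563). Of 11 genes in the glucocorticoid list, 3 rose and 1 fell in DT mice, where 24.4% of all genes were called. In control mice 1 rose and 2 fell, where 23.3% of all genes were called. Sgk1, a kinase gene of that list, had 9.29 ± 3.97 CPM in refed DT and 1.80 ± 0.895 in fasted DT mice, and 14 ± 3.90 CPM in refed control and 3.00 ± 1.26 in fasted control mice (edgeR adjusted p = 0.000197 and 0.000724). Mt1 and Mt2, the metallothionein genes, fell in control mice by 2.07 and 2.10 on the log2 scale (edgeR adjusted p = 0.00962 and 0.0179).

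Clock genes changed in both directions, 5 up and 5 down of 19 in DT mice and 4 up and 3 down in control mice. Over all genes edgeR called 10.8% higher and 13.5% lower in DT mice, and 10.9% higher and 12.3% lower in control mice. Rora, an activator of clock genes, had 22.1 ± 2.84 CPM in refed DT and 40.6 ± 5.43 in fasted DT mice, and 23.6 ± 3.22 CPM in refed control and 51.2 ± 9.01 in fasted control mice. Per2 and Bhlhe40, which act as repressors in the clock, rose by 1.53 and 1.89 on the log2 scale in DT mice and by 1.89 and 1.55 in control mice. Of 8 carbohydrate-response genes, 2 rose and 2 fell in DT mice and 2 rose and 1 fell in control mice. G6pc2, a glucose-6-phosphatase of β-cells, had 2730 ± 741 CPM in refed DT and 1640 ± 289 in fasted DT mice, and 2860 ± 572 CPM in refed control and 1670 ± 203 in fasted control mice. Pklr, a pyruvate kinase gene, fell by 1.38 in DT and 1.03 in control mice on the log2 scale.

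Immediate-early genes were also mixed, with 3 up and 4 down of 16 in DT mice and 2 up and 5 down in control mice. The share of all genes called was 24.4% in DT and 23.3% in control mice. Nr4a2 had 11.2 ± 5.31 CPM in refed DT and 2.58 ± 1.78 in fasted DT mice, and 14.1 ± 5.76 CPM in refed control and 1.71 ± 0.960 in fasted control mice. Junb, called lower in control mice, had 58.5 ± 17.5 CPM in refed control and 117 ± 41.5 in fasted control mice. In DT mice it had 71.7 ± 20.4 CPM refed and 119 ± 22.9 fasted. Of 3 genes reported as direct targets of Klf11 in other work, Ins1, Ins2 and Pdx1, 0 were called in either feeding comparison, and 0 had an unadjusted p under 0.05 (edgeR). Pdx1, the β-cell transcription factor gene, had log2 fold changes of 0.19 in DT mice (edgeR adjusted p = 0.244) and 0.06 in control mice (edgeR adjusted p = 0.757). Reads of Ins1 and Ins2 can be shared, so their separate values are uncertain. Across these lists the median log2 fold change of refed over fasted was −0.26 in DT and −0.585 in control mice for the Sp genes. It was −0.23 and −0.14 for the TGF-β pathway, −0.16 and −0.16 for the glucocorticoid list and −0.005 and 0.19 for clock genes. It was 0.10 in DT and −0.22 in control mice for carbohydrate-response genes, −0.36 and −0.56 for immediate-early genes and 0.31 and −0.11 for the reported Klf11 targets, beside −0.06 and −0.04 over all genes.

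Genes most like Klf11, Klf10 and Klf13 over the 22 libraries were taken from 10206 expressed genes by the root mean square difference of centred log2 CPM. These 3 members had the largest spread of group means. Klf11 was nearest to Klhl24 (0.617), Ccng2 (0.669) and Trp53inp1 (0.693), where Klf11 itself varied by 1.70 about its mean. Klhl24 had 4.59 ± 1.19 CPM in refed DT, 5.22 ± 0.779 in refed control, 33.7 ± 6.85 in fasted DT and 42.8 ± 13.4 in fasted control mice. Klf10 was nearest to Ubxn6 (0.203), Elapor2 (0.235) and Kiz (0.240), with its own variation at 0.607. Kiz had 16.9 ± 2.86 CPM in refed DT, 17.5 ± 3.13 in refed control, 33.8 ± 4.81 in fasted DT and 36.5 ± 3.12 in fasted control mice. Klf13 was nearest to Ppp2r5a (0.272), Zfp651 (0.309) and Ulk1 (0.326), with its own variation at 0.891. Ulk1 had 8.69 ± 4.37 CPM in refed DT, 12.4 ± 6.28 in refed control, 27 ± 20 in fasted DT and 19 ± 11.4 in fasted control mice.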

How the data were processed

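RNA of sorted β-cells was amplified with the SMARTer Ultra Low kit, made into Nextera XT libraries and read single-end, per the labels' protocols. The authors deposited 1 table of raw read counts per gene for 22 libraries. The submitters' processing notes name STAR 2.7.2b, HTSeq 0.9.1, DESeq2 1.28.1 and the build GRCm38.p6. Their parameters, strand setting and annotation release are not given in the sources used here.

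Counts were tested with edgeR 4.0.16 (R 4.3.3, limma 3.58.1): TMM scaling, filterByExpr (minimum count 10, minimum total 15), a robust quasi-likelihood fit of all 4 groups over 22 libraries, and Benjamini-Hochberg adjustment over 14064 genes at 0.05. Of 52327 genes, 24242 were 0 in all libraries. The common biological coefficient of variation was 0.373. Log2 CPM used a prior count of 2. Levels per kilobase used union exon lengths of GENCODE M21. Intervals are at 95%. The fit was tested on simulated data. DESeq2 1.42.0 and limma voom were alternatives, with RLE scaling, no filter, no insulin genes, libraries left out singly, and refed DT mice 13 and 20 left out.

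Each library is a different mouse. All listed genes are described. Of each pathway list the text gives counts, the median where it is used, and up to 3 called genes by smallest p, or 1 if none was called. The likeness rule names 3 genes for each of the 3 members with the largest spread of group means. Members and lists were chosen with earlier results of these data known. Counts over genes with overlapping annotation carry an uncertainty that the deposited counts cannot resolve.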

Additional observations from a re-analysis of the deposited data

Results flagged for a closer look

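Among the 40 groups of listed genes examined (10 genes in 4 groups), 3 held a mouse that lay far from the rest of its group, where chance gives about 1 in 20. Klf7 in refed DT mouse 13 stood at 24.5 CPM, with the next mouse of its group at 10.7 CPM. Klf12 in refed DT mouse 13 stood at 11.5 CPM, with the next at 5.93 CPM. Mouse 13 has the library with 69.4% of counts from Ins1 and Ins2 and a scaling factor of 0.567. On CPM of the unscaled total its Klf7 was 13.9 (next 11.5) and its Klf12 6.52 (next 5.88), from 268 and 126 reads. Klf11 in fasted control mouse 5 was low, at 36.2 CPM, with the nearest of its group at 42.8 CPM.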

How the results depend on the processing

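Klf10 and Klf11 were called lower after refeeding, in DT and in control mice, in all 22 fits that left out a library and in all 6 other settings. Without single libraries their log2 fold changes ran from −3.47 to −2.78 (Klf11, DT mice), −2.97 to −2.75 (Klf11, control), −1.18 to −0.90 (Klf10, DT) and −1.04 to −0.89 (Klf10, control), with a highest adjusted p of 0.00431. No other member was called in any setting. Members called were 0 or 2 throughout, as in the main fit. Values that were never called changed sign in 108 of 1830 results without a library and in 30 of 504 under other settings, with the smallest main adjusted p among them at 0.71 and 0.64.

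Counts over all genes moved more. DT over control in fasted mice (4 called) gave 2 with RLE scaling, 0 with no expression filter, 54 with DESeq2, 2 without Ins1 and Ins2 and 26 without mice 13 and 20. DT over control in refed mice (5) gave 94 with DESeq2, 1 with limma voom and 175 without mice 13 and 20. The difference of responses (1) gave 20 with DESeq2, 0 with limma voom and 14 without mice 13 and 20. The average over feeding (29) gave 8 with no filter, 188 with DESeq2 and 123 without mice 13 and 20. Without single libraries these counts ran from 0 to 19 (fasted), 1 to 52 (refed), 1 to 2 (difference) and 4 to 69 (average). Refed over fasted ran from 2884 to 4399 in DT and 2641 to 4223 in control mice. The highest counts came without refed DT mouse 13 (19, 4399 and 4223) or mouse 20 (52 and 69). The cause was not tested. No paired analysis was possible because the groups share no mouse number. Depth limits Klf4 and, in refed mice, Klf11, which had as few as 14 reads.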
